A study of Mus musculus with 2 samples.

Results

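The genes described here are 33 adhesion genes of white blood cells, chosen by symbol: 24 integrin chains (16 alpha and 8 beta chains) and 9 other adhesion molecules, of 32285 genes listed in the deposited tables. Their UMIs (unique molecular identifiers, each standing for 1 captured transcript) were read in 2 droplet libraries of single white cells from mouse aorta, sorted by CD45, a protein on the surface of leukocytes. Of these, the library labelled treated, came from a group given ZnDPA@siIRF5, an siRNA preparation named for IRF5 (a transcription factor of inflammation), and the library labelled control from a control group. The labels give no genotype, strain, diet, age, sex, number of pooled animals, treatment time or control contents, so these cannot be told apart from the treatment. With 1 library per group there is no replicate, no test and no p-value, and every interval is a 95% interval that covers counting error only.

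Integrins are surface receptors made of 1 alpha and 1 beta chain, and the pair decides the ligand. Leukocytes slow down on vessel walls when the selectin ligand PSGL-1 binds selectins, arrest when integrins of the Itgb2 and Itga4 groups bind ICAM and VCAM proteins, and then cross the wall with the help of Pecam1 and Jaml. In arterial lesions these steps are known for bringing in monocytes, and integrins that bind matrix hold cells in the tissue.

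The genes Itgam, Itgax and Itgad encode alpha chains that pair with the Itgb2 beta chain and lie next to each other on the plus strand of chromosome 7. In the GENCODE vM21 annotation of GRCm38 Itgam spans chr7:128062640-128118491, Itgax chr7:128129547-128150657 and Itgad chr7:128154376-128223816, with 11055 bases between the first pair and 3718 between the second. A further Itgb2 partner, Itgal, lies on the same strand at chr7:127296260-127335138, 727501 bases before Itgam. The 250 bases before the RefSeq start of Itgam and Itgax are shown because these neighbours led in different cell classes, and those of Icam1, an Itgb2 ligand, because its level split the neutrophils. Sequences are from RefSeq (GRCm38.p6), on the plus strand, 5′ to 3′, and 21 of the 33 genes had a match in that promoter table. The regions are chr7:128062390-128062639 for Itgam, chr7:128129300-128129549 for Itgax and chr9:21015690-21015939 for Icam1. Capitals mark GAGGAA, the core letters bound by the myeloid factor PU.1, read on either strand, and GGAAATTCC, a form of the site bound by NF-kappa-B.

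Itgam: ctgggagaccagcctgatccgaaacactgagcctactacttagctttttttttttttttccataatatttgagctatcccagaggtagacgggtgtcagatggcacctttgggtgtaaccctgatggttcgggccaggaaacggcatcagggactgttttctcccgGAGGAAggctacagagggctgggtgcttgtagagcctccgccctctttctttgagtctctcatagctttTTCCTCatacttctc
Itgax: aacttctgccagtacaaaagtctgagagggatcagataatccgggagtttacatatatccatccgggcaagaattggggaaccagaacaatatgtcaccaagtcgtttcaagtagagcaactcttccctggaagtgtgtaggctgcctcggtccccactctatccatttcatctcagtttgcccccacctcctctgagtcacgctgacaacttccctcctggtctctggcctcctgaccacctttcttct
Icam1: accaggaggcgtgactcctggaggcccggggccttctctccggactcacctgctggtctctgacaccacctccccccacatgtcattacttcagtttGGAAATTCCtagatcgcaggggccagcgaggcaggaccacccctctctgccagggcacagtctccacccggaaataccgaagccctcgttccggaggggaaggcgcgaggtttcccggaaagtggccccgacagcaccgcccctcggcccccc

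GAGGAA stood in the Itgam window on the plus strand, with its first base 84 bases before the start, and on the minus strand 15 bases before it, and these letters were not in the Itgax window. Of 32851 promoter windows of this length, 23.3% held GAGGAA on either strand. Among the members it also stood in the windows of Itga2b, Itga3, Itga5, Itgav, Itgb1, Itgb6, Cd44 and Alcam. GGAAATTCC stood in the Icam1 window 153 bases before the start, and 94 of the 32851 windows (0.286%) held it. These letters were searched after the values were known, and a match is a description only.

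After filtering there were 11805 cells (median 4543 UMIs) in the library labelled treated and 11523 cells (median 4629 UMIs) in the library labelled control, and 37 kept barcodes occurred in both. Cells were clustered without the 33 genes, so their levels did not form the clusters. The 27 clusters gave 16 named classes, each called "-like" from its markers, and 2 clusters left without a name (clusters 8 and 10). Levels are in CPM (UMIs of the gene over all UMIs of the class in a library, times 1000000), from 3′ ends of transcripts without correction for length, so each gene is compared with itself across classes and not with other genes. Ptprc, the gene of CD45, ranged from 115 to 1648 CPM in the library labelled treated and from 127 to 1604 CPM in the library labelled control, with fibroblast-like cells at 151 and 203 CPM, so cells with fibroblast markers were present in the gate. Irf5, the target, was at 120 against 109 CPM in macrophage-like cells (log2 ratio, treated over control, 0.14, interval 0.03 to 0.25), and in none of the 12 classes compared was it lower beyond counting error. It was higher beyond counting error in 5 of the 12, the others being T cell-like (0.71), neutrophil-like (0.54), patrolling (0.39) and classical monocyte-like cells (0.32). Every direction given follows the labels.

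Of the 33 genes, 27 had at least 100 UMIs over both libraries in at least 1 of the 12 classes that held at least 100 cells in each library. The other 6 (Itga2b, Itga7, Itga8, Itgad, Itgb4 and Itgb6) never did and are given as levels only. Of 396 possible pairs of a gene and a class, 201 were measured in this sense. Of these, 12 were at least 1.5-fold higher in the library labelled treated (5.97% of the 201, against 3.63% of all gene by class pairs) and 6 were at least 1.5-fold lower (2.99%, against 3.93%). The 18 pairs came from 10 genes. With a minimum of 300 UMIs 4 of 154 pairs were higher (2.12% of all gene by class pairs) and 5 lower (2.91%). In all 18 pairs the interval of the ratio left out 0. The pairs were chosen by fold and UMI number, and the interval rests on the same UMIs, so this is no separate support.

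**Figure D1:**
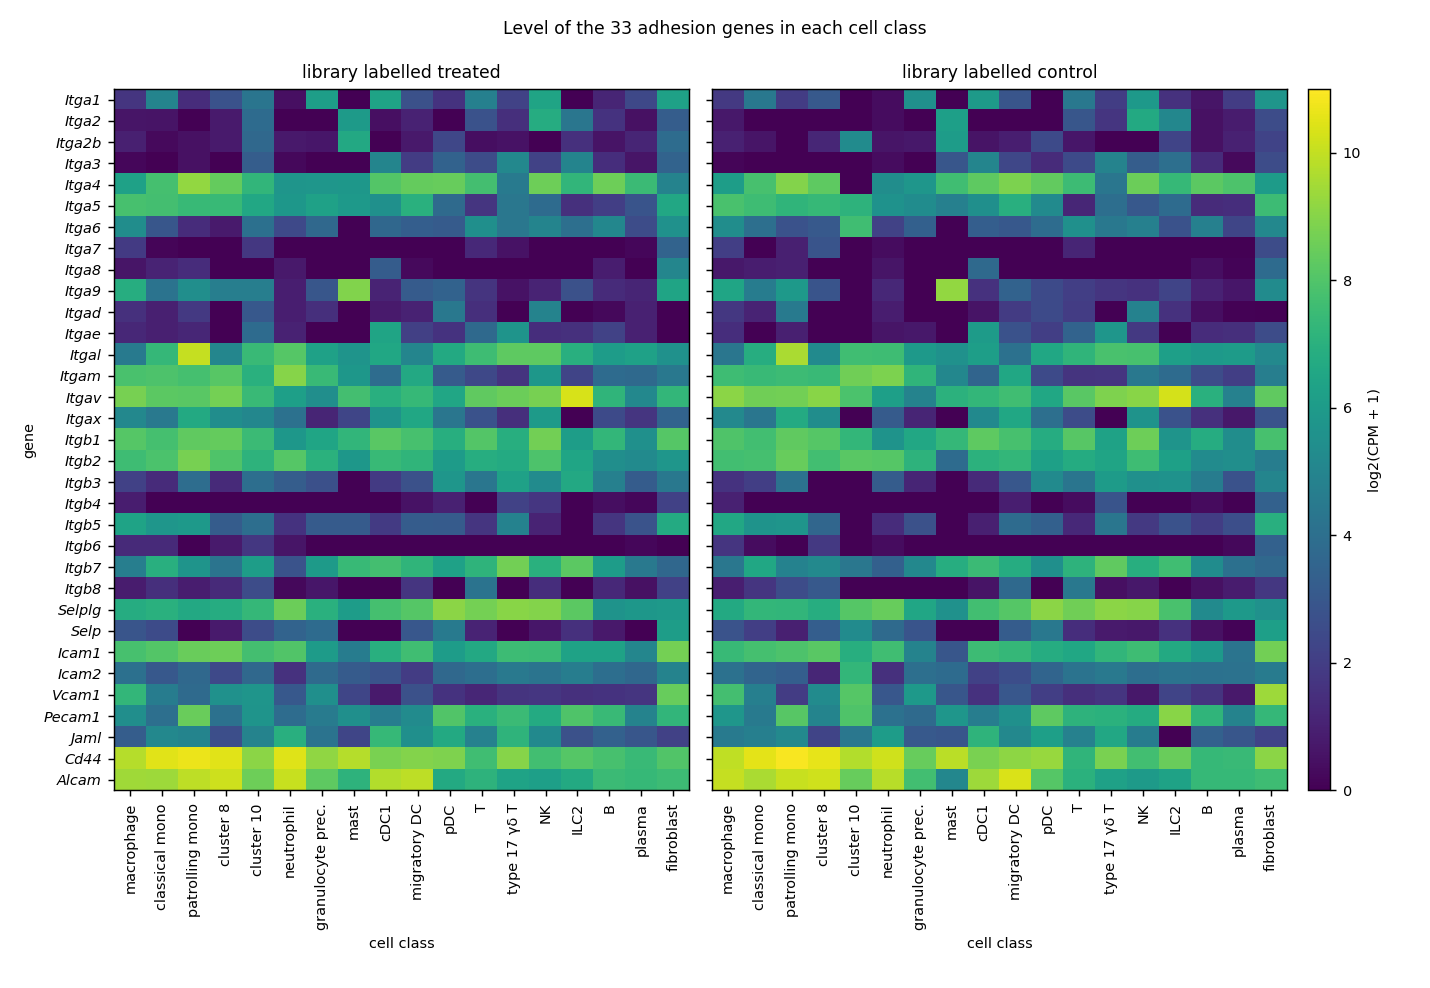
Level of the 33 genes (rows) in 16 named classes and clusters 8 and 10 (columns) as log2(CPM + 1), with the library labelled treated on the left and that labelled control on the right; darker means lower. The brightest Itgal square is that of patrolling monocytes (1049 and 781 CPM), the brightest Itgav square that of ILC2 cells (1288 and 1260 CPM) and the brightest Itga9 square that of mast cells (486 and 602 CPM).

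The alpha partners of Itgb2 did not all lead in the same class. Itgal, the alpha chain of LFA-1, which binds ICAM proteins, was highest in patrolling monocyte-like cells, which resemble the monocytes that crawl along vessel walls. It stood there at 1049 CPM (interval 1009 to 1091) and 781 CPM (728 to 837), the first value of each such pair being from the library labelled treated and the second from the library labelled control. NK cell-like cells followed at 312 and 223 CPM, and type 17 gamma delta T cell-like cells, resembling innate T cells that make interleukin 17, at 306 and 231 CPM. The intervals of these 2 classes overlapped in each library. Macrophage-like cells held 21.6 and 18.7 CPM. Thinned to 2000 UMIs per cell, 79.9% and 70.1% of patrolling monocyte-like cells had an Itgal UMI, against 2.94% and 2.29% of macrophage-like cells. The median depths before thinning were 4001 and 4094.5 UMIs for the patrolling class and 6042 and 6033 UMIs for the macrophage class. Itgb2 itself, the shared beta chain, was also highest in patrolling monocyte-like cells (429 and 348 CPM).

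Itgam, the alpha chain of Mac-1, the complement receptor of phagocytes, was highest in neutrophil-like cells at 516 CPM (498 to 535) and 453 CPM (431 to 475). Type 17 gamma delta T cell-like cells held 2.19 and 2.21 CPM of Itgam, and T cell-like cells 4.25 and 2.14 CPM. Itgax, the alpha chain known as CD11c and a usual marker of dendritic cells, instead led in patrolling monocyte-like cells (101 and 105 CPM) and migratory DC-like cells (92.1 and 92.4 CPM), whose intervals overlapped. NK cell-like cells followed at 62.3 and 49.6 CPM, and neutrophil-like cells held only 16.3 and 7.94 CPM of Itgax. The 2 neighbouring genes thus had different leading classes in both libraries. Itgad, the last of the row on chromosome 7, was sparse and led in NK cell-like cells (29.4 and 28.4 CPM, from 51 and 44 UMIs). Its interval there overlapped that of the next class in each library. Cox6a2, a marker of plasmacytoid dendritic cells, overlaps Itgad on the other strand, so reads of the pair may be shared. Cox6a2 had 660 and 478 UMIs over all barcodes, against 157 and 154 of Itgad over all classes. Across 18 classes and clusters, Spearman's rho with Itgb2 was 0.74 and 0.72 for Itgam, 0.70 and 0.49 for Itgax and 0.32 and 0.40 for Itgal, as a description of points that share libraries and depths.

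Between the libraries, Itgal was the member whose direction was the same in every class compared. Its level was higher in the library labelled treated in 12 of 12 classes, with log2 ratios from 0.20 to 0.91 and 11 of 12 intervals above 0, the exception being macrophage-like cells (0.20, -0.07 to 0.48). Past 1.5-fold were migratory DC-like cells, at 30.8 CPM (25.9 to 36.3) against 16.4 CPM (11.5 to 22.7), log2 ratio 0.91, and ILC2-like cells, at 122 CPM (94.4 to 156) against 73.1 CPM (51.7 to 100.3), log2 ratio 0.74. These 2 rest on 140 and 36 UMIs and on 65 and 38 UMIs. In migratory DC-like cells the 12 neutrophil markers, all present, summed to 1982 against 1232 CPM. The NK cell markers summed there to 36.7 against 9.10 CPM, and the type 17 gamma delta T cell markers to 44.0 against 6.83 CPM. T cell markers stood at 388 against 309 CPM, while B cell markers went the other way (103 against 136 CPM). The part of these markers in the Itgal result was not tested. ILC2-like cells resemble type 2 innate lymphoid cells, and migratory DC-like cells had markers of dendritic cells on their way to lymph nodes. Markers of another dendritic cell type, cDC2, summed to 1569 and 1651 CPM there, against 1813 and 2428 CPM for the migratory DC markers. With more clusters (resolution 2) most cells of this class were named after cDC2 cells, and the class gave no Itgal ratio in that setting. All 4 T cell-like clusters were higher too, with log2 ratios of 0.43 in cluster 13, 0.39 in cluster 15, 0.33 in cluster 12 and 0.27 in cluster 16. Of 1445 genes measured in all 12 classes, 45 (3.11%) were higher in all 12 and 23 (1.59%) lower in all 12. Of the 6 members among those genes (Itga4, Itgal, Itgav, Selplg, Pecam1 and Cd44), Itgal was the only one with a single direction. For members measured in fewer classes no such share over all genes was computed, so their counts of classes are descriptions only.

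Itgam was above 0 in 8 of 8 classes measured, a count without a share over all genes beside it. Its 3 largest ratios were in lymphoid classes with low levels. Plasma cell-like cells held 12.5 CPM (10.1 to 15.3) against 3.13 CPM (2.46 to 3.93), log2 ratio 1.999 (1.55 to 2.46). NK cell-like cells held 55.4 CPM (44.9 to 67.6) against 19.99 CPM (13.6 to 28.4), log2 ratio 1.47 (0.87 to 2.10), and B cell-like cells 13.4 CPM (10.6 to 16.8) against 4.88 CPM (3.75 to 6.25), log2 ratio 1.46 (0.96 to 1.96). The summed level of the 12 neutrophil markers moved the same way in these classes: 761 against 284 CPM in plasma cell-like cells, 338 against 203 CPM in NK cell-like cells and 496 against 254 CPM in B cell-like cells. All 12 markers were present in the B and plasma classes and 11 of 12 in NK cell-like cells of each library. In NK cell-like cells the 10 NK markers of the class itself summed to 5480 against 3386 CPM, and the T cell markers to 2529 against 2967 CPM. In plasma cell-like cells the macrophage markers summed to 197 against 60.7 CPM and the cDC2 markers to 27.5 against 5.46 CPM. Classical monocyte markers went the other way there (1147 against 1246 CPM). The part of all these markers in the Itgam results was not tested. Where only cells with 0 or 1 UMI of foreign markers (those of T, B and plasma cells and neutrophils, the own class aside) were summed, the log2 ratio was 1.40 in B cell-like cells (23 and 20 UMIs) and 1.74 in NK cell-like cells (35 and 9 UMIs), while too few plasma cell-like cells were left. With doublet calls kept, it was 1.33 in plasma cell-like and 0.77 in NK cell-like cells. Neutrophil-like cells, where Itgam is abundant, differed by 0.19 (0.10 to 0.28).

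Itgax in neutrophil-like cells was at 16.3 CPM (13.1 to 19.9) against 7.94 CPM (5.32 to 11.4), log2 ratio 1.03 (0.42 to 1.69), from 93 and 29 UMIs in 88 of 2263 and 27 of 1228 cells. Its log2 ratios in the other 7 classes measured reached down to -0.07. Both neutrophil clusters were above 0, at 0.80 (0.13 to 1.51) in cluster 9 and 1.42 (-0.25 to 3.48) in cluster 18, the last from 14 and 4 UMIs. With doublet calls kept the class ratio was 0.45, from 135 and 65 UMIs, under 1.5-fold (log2 0.585).

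Itga4 and Itgb7 encode the chains of the gut-homing integrin, and Itga4 with Itgb1 makes VLA-4, the receptor of Vcam1 and fibronectin. Itga4 was highest in patrolling monocyte-like cells (599 and 495 CPM). In the library labelled control, migratory DC-like cells were next at 456 CPM, and the intervals of these classes overlapped. B cell-like cells held 384 and 299 CPM and NK cell-like cells 382 and 374 CPM. Type 17 gamma delta T cell-like cells had little Itga4, at 21.9 CPM (16.3 to 28.9) and 18.8 CPM (14.0 to 24.7), although they were the leading class of Itgb7, at 400 CPM (374 to 427) and 317 CPM (296 to 338). The other alpha partner of Itgb7 is Itgae, known as CD103, which binds E-cadherin and marks tissue-resident lymphocytes and cDC1 cells, the cross-presenting dendritic cells. Itgae led in cDC1-like cells at 84.5 CPM (73.9 to 96.3) and 65.3 CPM (54.8 to 77.3), and type 17 gamma delta T cell-like cells were next at 50.03 and 53.5 CPM. Thinned to 2000 UMIs, 15.3% and 12.2% of cDC1-like cells and 8.90% and 9.67% of the gamma delta class had an Itgae UMI, against 0.66% and 0.25% of B cell-like cells. The median depths before thinning were 11875.5 and 12936 UMIs in the cDC1 class, 3622 and 3108 in the gamma delta class and 4953 and 4496 in the B cell class. The gamma delta class therefore paired high Itgb7 with Itgae and little Itga4 in both libraries. Haspin and Cerkl overlap Itgae and Itga4 on the other strand, and the sources used here do not say whether counting used the strand.

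Itgb7 was higher in the library labelled treated in 11 of 11 classes measured, with 9 intervals above 0. How many of all genes had such a count was not computed. Neutrophil-like cells, with 34 UMIs in each library, fell short of the minimum and held 5.94 against 9.31 CPM. Patrolling monocyte-like cells held 51.3 CPM (42.6 to 61.2) against 28.2 CPM (18.9 to 40.5), log2 ratio 0.86, from 123 and 29 UMIs. There the T cell markers summed to 118 against 278 CPM, the B cell markers to 19.2 against 229 CPM and the neutrophil markers to 2117 against 8487 CPM, and their part in the Itgb7 result was not tested. B cell-like cells held 66.3 CPM (59.8 to 73.2) against 39.4 CPM (36.0 to 43.0), log2 ratio 0.75, and ILC2-like cells 303 CPM (258 to 354) against 194 CPM (158 to 236), log2 ratio 0.64, which was 0.58 and just under 1.5-fold with doublet calls kept. Among B cells the 2 clusters differed in level and in number. Cluster 0 held 74.3 and 55.6 CPM in 871 and 1502 cells, and cluster 26, with the germinal centre genes Rgs13 and Gcsam among its leading genes, held 31.9 and 19.3 CPM in 73 and 361 cells. Given the same cluster weights in both libraries, the B cell ratio was 0.43, and in cells with few markers of other classes 0.52, both under 1.5-fold. T cell-like cells (0.05, -0.05 to 0.15) and NK cell-like cells (0.09, -0.20 to 0.39) had intervals that held 0.

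**Figure D2:**
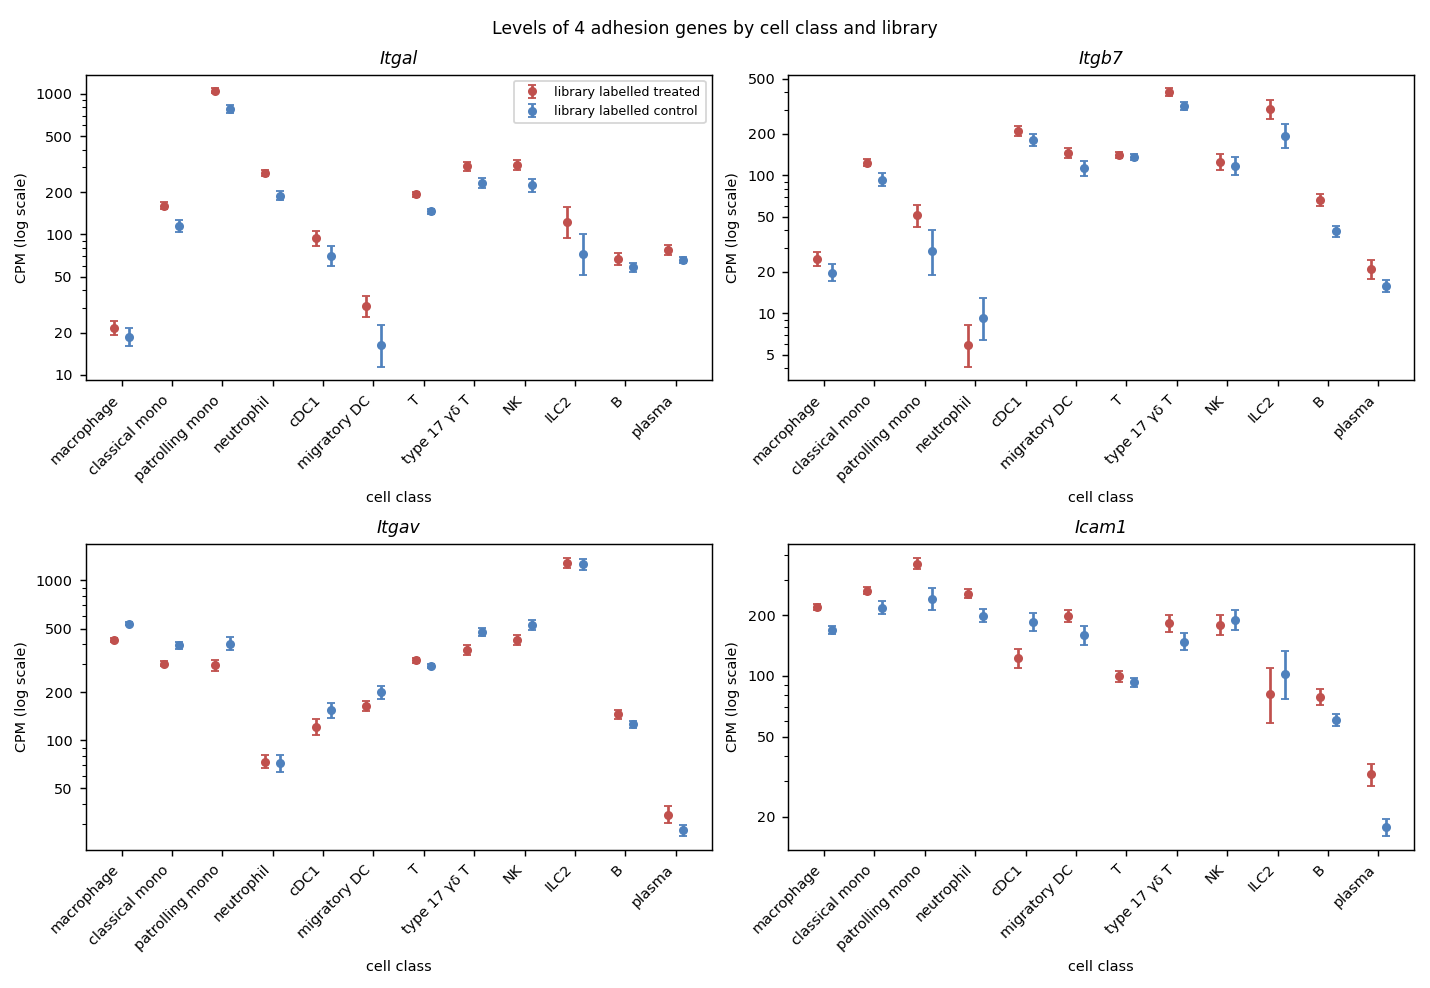
CPM (log axis) of Itgal, Itgb7, Itgav and Icam1 in the 12 classes compared, in red for the library labelled treated and blue for that labelled control, with exact Poisson 95% intervals as bars. Red lies above blue for Itgal in all 12 classes, for Itgav it lies below blue in 7 of 12, and for Icam1 it lies below blue in cDC1, NK and ILC2 cells, the last from under 100 UMIs.

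Receptors of collagen and laminin are built from several alpha chains with Itgb1, or from Itga6 with Itgb4. Itga2, a collagen receptor chain and the basis of the NK marker DX5, led in NK cell-like cells (111 and 103 CPM) with mast cell-like cells next (62.7 and 73.6 CPM). Neutrophil-like cells had 0 and 1 UMI of it. Itga1, the other main collagen receptor chain, was shared by NK cell-like cells (85.4 and 61.3 CPM) and cDC1-like cells (81.9 and 62.4 CPM), whose intervals overlapped. It was above 0 in 5 of 5 classes measured, at log2 ratios of 0.39 to 0.58, none past 1.5-fold. Pelo overlaps Itga1 on the same strand, so reads of the pair may be shared. Itgb1, their common beta chain, led in NK cell-like cells too (408 and 380 CPM).

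Itga3 led in type 17 gamma delta T cell-like cells (34.2 and 29.5 CPM) and cDC1-like cells (31.6 and 31.4 CPM). Itga6, which pairs with Itgb1 or Itgb4 to bind laminin, was at 44.1 and 44.8 CPM in T cell-like cells and 40.6 and 40.8 CPM in macrophage-like cells. In classical monocyte-like cells, which resemble the inflammatory monocytes of blood, it was at 6.72 CPM (5.18 to 8.56) against 15.2 CPM (11.4 to 19.8), log2 ratio -1.17 (-1.72 to -0.63), from 65 and 54 UMIs. The summed T cell marker level in that class was 95.5 against 274 CPM (21 of 21 markers present in each library), and its part in the Itga6 result was not tested. Itgb4, the epithelial beta chain, had 31 and 44 UMIs over all classes, most densely in fibroblast-like (3.40 and 9.70 CPM) and type 17 gamma delta T cell-like cells (3.51 and 6.27 CPM). Itga7, the muscle laminin receptor chain, had 58 and 59 UMIs.

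Itga9, whose product binds tenascin and osteopontin, led in mast cell-like cells at 486 CPM (404 to 579) and 602 CPM (484 to 740), in 57.3% of 89 and 64.0% of 50 cells. Macrophage-like cells followed at 114 and 88.1 CPM, and T cell-like cells held 2.13 and 3.07 CPM. Mast cell-like cells were also the leading class of Itga2b, the platelet integrin alpha chain (98.0 and 66.9 CPM, from 25 and 10 UMIs). Its beta partner Itgb3 had 0 UMIs in mast cell-like cells of either library, which allows up to 11.8 and 20.1 CPM at 3 UMIs. Itga9 in macrophage-like cells differed by a log2 ratio of 0.37, under 1.5-fold.

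Among the receptors of arginine-glycine-aspartate motifs, Itgav, a subunit of receptors for vitronectin and of activators of TGF-beta, led in ILC2-like cells at 1288 CPM (1193 to 1388) and 1260 CPM (1165 to 1360). Macrophage-like cells followed with 423 and 537 CPM. Its beta partners went to different classes. Itgb3 led in ILC2-like cells (97.9 and 48.1 CPM) and type 17 gamma delta T cell-like cells (77.7 and 63.8 CPM), with overlapping intervals in each library. Itgb5 led in fibroblast-like (106 and 122 CPM) and macrophage-like cells (82.7 and 96.2 CPM), and Itgb8, which activates TGF-beta with Itgav, in T cell-like cells (17.3 and 20.2 CPM). Itga5, the fibronectin receptor chain, led in macrophage-like (221 and 225 CPM) and classical monocyte-like cells (211 and 190 CPM). Itga8 led in fibroblast-like cells (32.3 and 13.3 CPM, from 19 and 11 UMIs), and Itgb6, another TGF-beta-activating chain, had 40 and 38 UMIs in all. The 6 smooth muscle markers, all present, summed to 1202 and 609 CPM in fibroblast-like cells. Their part in the Itga8 and Itgb5 levels of that class was not tested.

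Itgav was lower in the library labelled treated in 7 of 12 classes, with all 7 intervals below 0, and never past 1.5-fold. The lowest log2 ratio was -0.45 (-0.63 to -0.28) in patrolling monocyte-like cells, at 294 against 403 CPM, and macrophage-like cells were at -0.35 (-0.40 to -0.29). T, B and plasma cell-like cells were above 0, at 0.11, 0.21 and 0.33. Gm13684 overlaps Itgav on the other strand, with 848 and 954 UMIs, so reads of the pair may be shared.

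The selectin axis was represented by Selplg, which encodes PSGL-1, and Selp, the selectin of platelets and endothelium. Selplg was highest in pDC-like cells, which resemble plasmacytoid dendritic cells (545 and 539 CPM), type 17 gamma delta T cell-like cells (527 and 540 CPM) and NK cell-like cells (495 and 519 CPM), which overlapped. B cell-like cells were lowest at 49.9 and 36.9 CPM. In patrolling monocyte-like cells Selplg was at 99.6 CPM (87.4 to 113) against 152 CPM (129 to 178), log2 ratio -0.61 (-0.90 to -0.31). With doublet calls kept the ratio was -0.32, under 1.5-fold, from 202 and 98 UMIs. The 12 neutrophil markers summed to 2117 against 8487 CPM in that class, and Selplg stood at 370 and 342 CPM in neutrophil-like cells, and their part in the Selplg result was not tested. Selp led in fibroblast-like cells (68.1 and 72.8 CPM). The 7 endothelial markers, all present, summed to 706 and 390 CPM there, and their part in the Selp level was not tested.

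Icam1, the ligand of Itgal and Itgam, was highest in fibroblast-like cells (410 and 400 CPM). That class also held endothelial markers (706 and 390 CPM), smooth muscle markers (1202 and 609 CPM) and neutrophil markers (7117 and 2805 CPM). Immunoglobulin genes summed there to 8860 and 94548 CPM. The part of these genes in its Icam1, Vcam1 and Icam2 levels was not tested. Cluster 8, led by Lyz1, Dcstamp and Retnla, held 382 and 294 CPM, and patrolling monocyte-like cells 361 and 240 CPM. In the library labelled treated the intervals of the fibroblast-like class and cluster 8 overlapped. Icam1 was higher in the library labelled treated in 9 of 11 classes, 8 of them with intervals above 0. How many of all genes had such a count was not computed. Plasma cell-like cells were at 32.4 CPM (28.5 to 36.7) against 17.7 CPM (16.1 to 19.5), log2 ratio 0.87 (0.64 to 1.10), and patrolling monocyte-like cells had a log2 ratio of 0.59 (0.38 to 0.80). The latter ratio lay at the 1.5-fold limit and was under it, at 0.55 to 0.58, in 5 of the 7 alternative settings that kept this class. cDC1-like cells went the other way, at 122 CPM (109 to 136) against 185 CPM (167 to 204), log2 ratio -0.60 (-0.82 to -0.38), which was -0.46 and under 1.5-fold with doublet calls kept. The difference between these classes was not tested. In plasma cell-like cells the neutrophil markers were also higher (761 against 284 CPM), with Icam1 at 256 and 199 CPM in neutrophil-like cells, and in cDC1-like cells the 9 migratory DC markers were lower (140.5 against 245 CPM, 8 of 9 present in each library), with Icam1 at 199 and 159 CPM in migratory DC-like cells. Their part in the Icam1 results was not tested.

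Vcam1, the ligand of VLA-4, led in fibroblast-like cells (351 and 669 CPM), with macrophage-like cells at 155 CPM (148 to 162) and 211 CPM (202 to 220). T cell-like cells held 1.28 and 1.78 CPM. After thinning, 15.9% and 19.1% of macrophage-like cells had a Vcam1 UMI, against 0.30% and 0.42% of T cell-like cells, whose median depths were 4765.5 and 4159.5 UMIs. Icam2, an Itgal ligand, was low over whole classes, cluster 19 of the macrophages apart, as given with the clusters. It reached at most 28.9 CPM in the library labelled treated (fibroblast-like cells), and 155.7 CPM in the 28 cells of cluster 10 in the library labelled control, from 8 UMIs.

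Pecam1, the homophilic adhesion molecule of cell junctions, led in patrolling monocyte-like cells of the library labelled treated (358 CPM, against 279 CPM in the library labelled control) and in ILC2-like cells of the library labelled control. ILC2-like cells held 252 CPM (211 to 299) against 531 CPM (470 to 597), log2 ratio -1.07 (-1.38 to -0.77), with a UMI in 54 of 121 and 75 of 139 cells. The 7 endothelial markers summed to 1.88 and 1.92 CPM there, with 6 of 7 at 0 in each library. The 8 markers of cycling cells summed to 203 against 28.9 CPM and the 11 B cell markers to 11.3 against 190 CPM in the same class, and their part in the Pecam1 result was not tested.

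Jaml, which helps neutrophils cross epithelia, led in cDC1-like cells (164 and 141 CPM) and type 17 gamma delta T cell-like cells (143 and 95.9 CPM). Neutrophil-like cells were at 123 CPM (114 to 132) against 67.1 CPM (58.9 to 76.0), log2 ratio 0.88 (0.66 to 1.09), and both neutrophil clusters shared this, with 0.77 (0.53 to 1.02) in cluster 9 and 0.77 (0.34 to 1.22) in cluster 18. Macrophage-like cells went the other way, at 8.58 CPM (7.05 to 10.4) against 22.0 CPM (19.2 to 25.2), log2 ratio -1.36 (-1.70 to -1.02). The macrophage difference sat in cluster 2 (-1.44, -2.03 to -0.87) and cluster 4 (-1.60, -2.11 to -1.10), while cluster 3 was at 0.73 (-0.50 to 2.07) from 18 and 9 UMIs. The 11 B cell markers, all detected in both libraries, summed to 80.7 against 226 CPM in macrophage-like cells, and their part in the Jaml result was not tested. Cells with at most 1 UMI of other classes' markers gave -2.44, from 5 and 19 UMIs.

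Cd44, the hyaluronan receptor, was highest in patrolling monocyte-like cells (1649 and 1926 CPM), and none of its 12 log2 ratios (-0.39 to 0.45) passed 1.5-fold. Alcam, the ligand of CD6, stood at 680 CPM (665 to 694) against 1047 CPM (1027 to 1068) in macrophage-like cells, log2 ratio -0.62 (-0.67 to -0.58). Its 3 large macrophage clusters were all lower, at -0.66 in cluster 2, -0.70 in cluster 3 and -0.57 in cluster 4. The ratio was under 1.5-fold with fewer clusters (-0.55), with more clusters (-0.58), with doublet calls kept (-0.53) and in cells with at most 1 UMI of other classes' markers (-0.31).

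**Figure D3:**
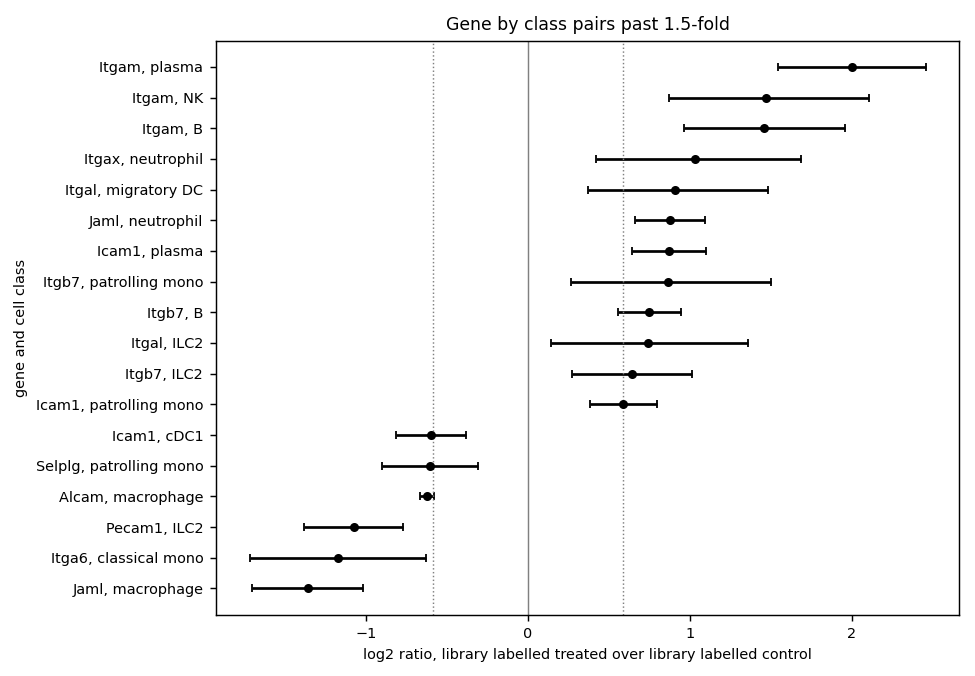
Log2 ratio (treated over control, as labelled) for the 18 pairs of a gene and a class past 1.5-fold (dotted lines), with exact conditional binomial 95% intervals. Itgam in plasma, NK and B cells lies at the top (1.999, 1.47 and 1.46) and Jaml in macrophages at the bottom (-1.36), and no interval reaches 0.

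By class, the counts read as follows against all genes measured in that class. B cell-like cells had 2 of 16 members at least 1.5-fold higher (4.68% of all genes) and 0 lower (10.1%). Plasma cell-like cells had 2 of 18 higher (6.57%) and 0 lower (6.4%), and neutrophil-like cells 2 of 15 higher (4.33%) and 0 lower (2.89%). Patrolling monocyte-like cells had 2 of 17 higher (3.85%) and 1 lower (3.17%), and ILC2-like cells 2 of 7 higher (4.24%) and 1 lower (4.29%). NK cell-like cells had 1 of 16 higher (2.36%) and 0 lower (2.88%), and migratory DC-like cells 1 of 15 higher (5.33%) and 0 lower (3.26%). Macrophage-like cells had 0 of 21 higher (2.44%) and 2 lower (2.76%), classical monocyte-like cells 0 of 21 higher (3.29%) and 1 lower (2.95%), and cDC1-like cells 0 of 17 higher (2.57%) and 1 lower (2.35%). T cell-like cells had 0 of 21 in either direction (1.94% and 1.58%), and type 17 gamma delta T cell-like cells 0 of 17 (2.05% and 1.99%). The median log2 ratio of the members measured was 0.30 in B cell-like cells, against -0.05 over all genes, and 0.28 in the gamma delta class, against 0.00. These were the widest gaps. It was 0.19 against -0.03 in plasma, 0.18 against 0.04 in patrolling monocyte-like and 0.19 against 0.07 in neutrophil-like cells. NK cell-like cells had 0.10 against -0.03, T 0.07 against -0.01, classical monocyte-like 0.07 against 0.02, cDC1-like 0.08 against 0.05 and ILC2-like 0.03 against 0.01. Macrophage-like (-0.03 against 0.04) and migratory DC-like cells (0.01 against 0.06) lay below all genes.

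Within classes, some members differed far more between clusters than between libraries. These cluster pairs were chosen after the values were seen and have no test. Neutrophil-like cells split into cluster 9, led by Il1f9, Hcar2 and Acod1, genes of stimulated neutrophils, and cluster 18, led by Retnlg, Ly6g, Ltf and Lcn2, genes of younger granule-rich neutrophils. Icam1 was at 416 and 357 CPM in cluster 9 and at 27.6 and 36.6 CPM in cluster 18, a 15.1-fold (11.7 to 19.6) and 9.76-fold (7.57 to 12.8) gap. Itga5 (83.4 and 78.8 against 14.5 and 16.7 CPM) and Alcam (1426 and 1285 against 587 and 492 CPM) were on the same side, as was Cd44, at 2.05-fold and 1.87-fold. Itgam was on the opposite side, 1.62-fold and 2.06-fold higher in cluster 18. The order of the clusters was the same in both libraries for each of these genes.

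Macrophage-like cells divided Itgax, Itgb5 and Vcam1 among clusters. Cluster 3, led by Mmp12, Spp1, Gpnmb and Trem2, genes of lipid-laden macrophages, held 140 and 146 CPM of Itgax, against 11.6 and 10.3 CPM in cluster 2, led by Ccl12, Ccl4 and C1q genes. Cluster 4, led by Lyve1, Cd163, Vsig4 and Cd209 genes, as in resident macrophages of the vessel wall, held 3.82 and 2.59 CPM. Itgb5 was 5.32-fold and 4.65-fold higher in cluster 3 than in cluster 4. Vcam1 ran the other way, with 241 and 315 CPM in cluster 4, 157 and 225 CPM in cluster 2 and 38.2 and 22.8 CPM in cluster 3. Cluster 19, with 20 and 14 cells led by Alox15, Prg4 and Cd5l, held 1101 and 594 CPM of Itgam, 550 and 357 CPM of Itga6, 440 and 547 CPM of Icam2 and 248 and 226 CPM of Selp. The low class totals of Icam2 and Selp in macrophage-like cells (15.7 and 16.2 CPM, 6.46 and 5.94 CPM) thus hid a small cluster with far more of both.

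T cell-like clusters differed in several integrin chains. Cluster 12, led by Lef1 and Dapl1, genes of naive T cells, held 37.3 and 49.04 CPM of Itga4, and cluster 13, led by Gzmk, Cd8a and Ccl5, as in CD8 effector cells, 457 and 306 CPM. Itga1 was 6.83-fold and 6.39-fold higher in cluster 13 than in cluster 12. Cluster 15, led by Tnfsf8, Izumo1r, Tnfrsf4 and Cd4, with Foxp3 among its detected markers, held 55.4 and 66.8 CPM of Itgb8, against 0.55 and 0.92 CPM in cluster 13 and none seen in cluster 12. Itgav was 12.4-fold and 10.7-fold higher in cluster 15 than in cluster 12, and Itgae 6.63-fold and 3.70-fold. Among B cells, Itga4 was 2.84-fold and 3.74-fold lower in the germinal centre-type cluster 26 than in cluster 0.

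**Figure D4:**
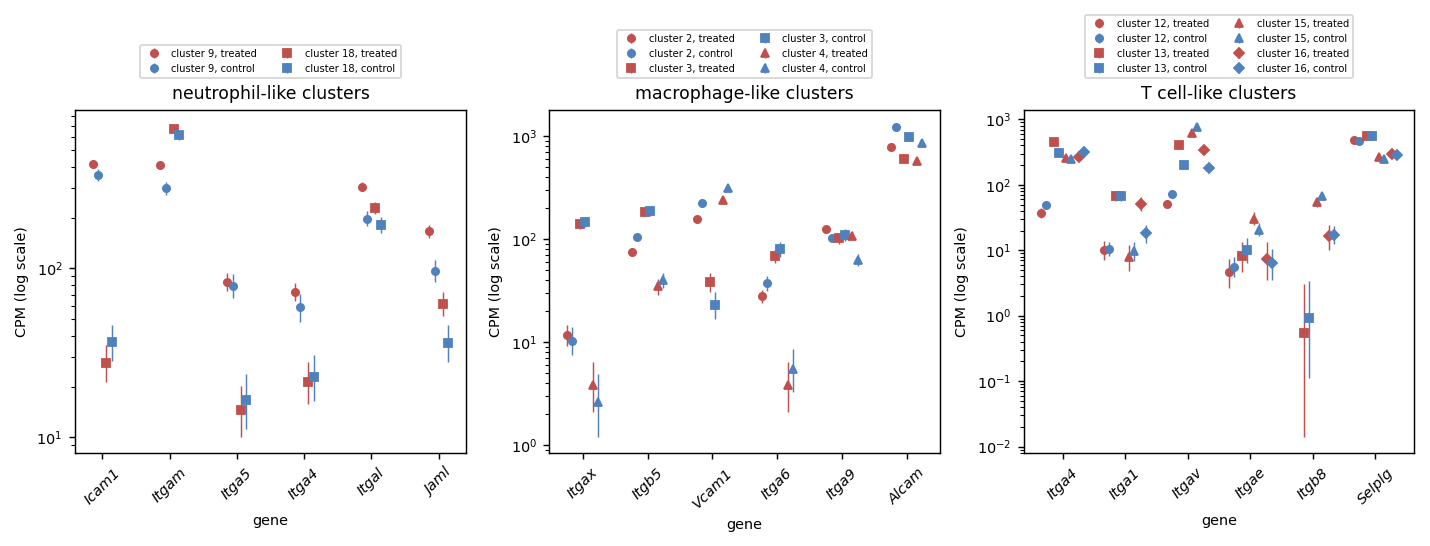
CPM (log axis) of 6 genes each in neutrophil-like, macrophage-like and T cell-like clusters, in red for the library labelled treated and blue for that labelled control, with exact Poisson 95% intervals; levels of 0 are not drawn and cluster 19 is left out. Icam1 separates neutrophil clusters 9 and 18 (416 against 27.6 CPM in the library labelled treated), Itgax and Vcam1 separate macrophage clusters 3 and 4 in opposite directions, and Itgb8 is highest in T cell cluster 15.

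The other genes of leukocyte adhesion were read from 4 lists of 95 genes. Of the adaptors that switch integrins on, macrophage-like cells had 28 measured, 0 higher (2.44% of all genes in that class) and 1 lower (2.76%). The lower one was Skap1 (27.7 against 46.9 CPM, log2 ratio -0.76). Skap1, an adaptor of T cell adhesion, was also lower in classical (-2.23) and patrolling monocyte-like cells (-2.09) and higher in migratory DC-like cells (1.03). B cell-like cells had 5 of 27 adaptors higher and 0 lower (4.68% and 10.1% of all genes in that class): Actn1 (1.28), Fgr (0.91), Vcl (0.82), Zyx (0.66) and Flna (0.59). NK cell-like cells had 2 of 22 higher (2.36% of all genes), the kinase Syk (0.97) and the Rap1 effector Rassf5 (0.76). None of the adaptors measured in neutrophil-like (26), cDC1-like (24), ILC2-like (9) or type 17 gamma delta T cell-like cells (23) was past 1.5-fold. Of all genes, 4.33% were higher and 2.89% lower in neutrophil-like cells, and 2.57% and 2.35% in cDC1-like cells. These shares were 4.24% and 4.29% in ILC2-like cells and 2.05% and 1.99% in the gamma delta class. The 12 neutrophil markers differed in the B cells and the T cell markers in classical monocytes, as given above, and the 21 T cell markers summed to 118 against 278 CPM in patrolling monocyte-like cells. Their part in these adaptor values was not tested.

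Integrin ligands were measured in fewer numbers per class. Fn1, which encodes fibronectin, was at 889 against 470 CPM in classical monocyte-like cells (log2 ratio 0.92), and Spp1, which encodes osteopontin, at 432 against 269 CPM (0.69), so 2 of 5 ligands measured there were higher (3.29% of all genes) and 0 lower (2.95%). In macrophage-like cells 1 of 7 was higher (2.44% of all genes), the matrix protein gene Thbs1 (169 against 109 CPM, 0.63). Thbs1 was at 40.2 against 3.87 CPM in cDC1-like cells (log2 ratio 3.38, 2.35 to 4.63), from 107 and 8 UMIs. Plasma cell-like cells had 4 of 5 ligands higher, Thbs1 (1.99), Fn1 (1.88), Spp1 (0.77) and Tgfb1 (0.62), and 1 lower, Mfge8 (-0.68, -1.50 to 0.06), where 6.57% and 6.4% of all genes were past 1.5-fold in these directions. The 15 macrophage markers, all present, summed to 197 against 60.7 CPM in that class, and their part in these values was not tested. In the selectin and CD44 list, macrophage-like cells had 0 of 16 higher (2.44% of all genes) and 1 lower (2.76%). The lower one was the hyaluronan receptor gene Lyve1 (232 against 352 CPM, -0.60). B cell-like cells had 2 of 16 higher (4.68% of all genes) and 2 lower (10.1%), Hmmr (-1.56) and Cd24a (-0.70) being the lower ones. The 8 markers of cycling cells summed to 510 against 1395 CPM in B cell-like cells, and cluster 26 held 73 against 361 of them. Their part in these values was not tested. Of the tetraspanins and diapedesis genes, Cd81 was lower in migratory DC-like (-1.15), cDC1-like (-0.91) and classical monocyte-like cells (-0.60), where Cd9 was higher (0.73). In these 3 classes 1 of 9, 2 of 8 and 1 of 8 genes of that list were lower (3.26%, 2.35% and 2.95% of all genes). Those higher were 0 of 9, 0 of 8 and 1 of 8 (5.33%, 2.57% and 3.29%).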

How the data were processed

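The data are 2 libraries, 1 per group. Per the labels, 10x Genomics 3′ chemistry was used. Build mm10, Seurat 4.4.0 and Cell Ranger 3.1.0 are named per the submitters' processing notes, and per the file headers the tables were written by Cell Ranger 7.2.0. The deposited values are raw UMI counts per gene and barcode. The sources used here do not say which version made them, or whether intronic reads or strand entered the counting.

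Barcodes with at least 500 genes and at most 15% mitochondrial UMIs were kept, and Scrublet calls were removed within each library (scanpy 1.11.5; 684 and 533 calls). Counts scaled to 10000 UMIs and log-transformed, 2000 variable genes without the 33 members, 30 components, 15 neighbours and Leiden resolution 1 (igraph 0.11.9) gave the clusters. Library and group are the same, so no batch correction was run. Names came from marker lists. A name needed at least 3 detected markers, at least 2-fold over other cells and in at least 10% of cells, and own markers among the top 10 genes had to be at least as many as those of any other list. These naming rules were set after the clusters were seen. The migratory DC-like cluster also had the cDC2 marker Cd209a among its top genes.

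UMIs were summed per class and library and scaled to CPM by the class total. Levels have exact Poisson, ratios exact conditional binomial and shares Clopper-Pearson 95% intervals (scipy 1.17.1). The median UMIs per cell were 4543 and 4629. Thinned shares are expected values at 2000 UMIs per cell, without shallower cells. A count of 0 was given a floor of 3 UMIs. The calculation of the ratios was checked on simulated counts with known folds. A pair of a gene and a class was named where it held at least 100 UMIs and a 1.5-fold ratio, or where the class was the first or second highest of that gene in both libraries. The genes and lists were chosen with earlier results of these data known. Alternatives covered resolution, doublets, gene and mitochondrial limits, scaling, UMI minimum, foreign markers and cluster weights. No protein sequences were used here.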

Additional observations from a re-analysis of the deposited data

Results flagged for a closer look

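Jaml and Icam1 moved in opposite directions in different classes, each beyond counting error, and the difference between the classes was not tested. Jaml had a log2 ratio of 0.88 in neutrophil-like cells and of -1.36 in macrophage-like cells. Icam1 had a log2 ratio of 0.87 in plasma cell-like cells, 0.59 in patrolling monocyte-like cells and -0.60 in cDC1-like cells. With 1 library per group, whether such opposite ratios recur between animals cannot be told.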

How the results depend on the processing

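The 12 higher and 6 lower pairs depended most on the UMI minimum. With at least 40 UMIs 20 of 242 pairs were higher and 12 lower (5.94% and 5.77% of all gene by class pairs), with at least 300 UMIs 4 and 5 of 154 (2.12% and 2.91%), and with no minimum 47 and 41 of 336 (13.8% and 14.0%). Leiden resolution 0.5, with 10 classes compared, gave 3 lower. Cells with at most 1 UMI of foreign markers, with 6 classes left, gave 1 lower. Of 146 values of the 18 named pairs under the alternatives, 138 moved within their interval, 8 moved further and 0 changed sign, and 15 values of 7 pairs were under 1.5-fold. With doublets kept these were Selplg (-0.32) in patrolling monocyte-like, Icam1 (-0.46) in cDC1-like, Itgax (0.45) in neutrophil-like, Itgb7 (0.58) in ILC2-like and Alcam in macrophage-like cells. Alcam was also under it at resolution 2 (-0.58), and Icam1 in patrolling monocyte-like cells in 5 settings (0.55 to 0.58). The 8 were Alcam in macrophage-like cells (-0.55 at resolution 0.5, -0.53 with doublets kept, -0.31 with few foreign markers), Itgam in plasma cell-like (1.33) and NK cell-like cells (0.77) with doublets kept, Jaml in macrophage-like cells (-2.44) and Itgb7 in B cell-like cells (0.52) with few foreign markers, and Itgb7 in B cell-like cells (0.43) with equal cluster weights. For these the cause was not tested. Itgal, Itgb7, Itgam and Itga1 kept 1 direction in all their measured classes under both other scalings, and Itgav was lower in 8 of 12 classes, not 7, with the median of ratios. At resolution 2 most cells of the migratory DC-like cluster were named after cDC2 cells. No paired analysis was possible because each group has 1 library. Depth limits sparse pairs: Itgal in ILC2-like cells, from 65 and 38 UMIs, had a log2 ratio of 0.74 with an interval of 0.14 to 1.36.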
